A study of Homo sapiens with 6 samples.

Results

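The genes described here are the secreted and membrane-bound matrix proteases of the MMP and ADAMTS families and their inhibitors, the TIMPs. Members were chosen by symbol alone: MMP followed by a number and an optional letter, ADAMTS followed by a number, and TIMP followed by a digit. The rule found 44 of the 16779 genes in the deposited tables, namely 21 MMP, 19 ADAMTS and 4 TIMP genes. RNA-seq was done on 6 libraries labelled A549, a line from a human lung adenocarcinoma. The 3 control libraries carry the genotype label WT, and the 3 others the label RN7SK knockout. RN7SK encodes the small nuclear RNA that holds the elongation kinase P-TEFb inactive. The labels name no other treatment, time, guide or clone, and do not say whether the knockout libraries come from 1 clone or whether replicates are separate cultures. The p-values therefore measure only the spread between these libraries, which may be technical.

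Matrix metalloproteinases are zinc enzymes made as inactive precursors. A cysteine in the propeptide blocks the zinc until the propeptide is cut. Most are secreted, while the membrane-type members stay on the cell surface. ADAMTS enzymes are related secreted zinc proteases with thrombospondin repeats. They trim procollagens, cut proteoglycans such as versican and aggrecan, or act on fibrillin microfibrils and von Willebrand factor. TIMPs bind the active site of MMPs, and TIMP3 also inhibits several ADAMTS enzymes. In lung epithelium MMP7, or matrilysin, is a well-known member of the family.

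Total counts over the listed genes ran from 16018260 to 19357144 per library. RN7SK itself was not analysed here, so the knockout label could not be checked on the targeted gene. CDKN2A and CDKN2B, which A549 cells are known to lack, together had 60.7 to 65.2 CPM (counts scaled to library size) in the control libraries against 0 to 0.123 CPM in the knockout libraries. Each direction below compares libraries by these labels. Differences between A549 cells with and without RN7SK cannot be told apart from differences between cells of other origin, and gene lengths behind the authors' FPKM also differed between the groups. Of 10 lung epithelial markers, the 5 that could be tested rose, among them KRT7, KRT8 and KRT18. EPCAM and KRT19 were below 1 CPM on average in both groups, and SFTPB was at 0 in all libraries. Of 8 endothelial markers in the tables, ESAM, ENG, ROBO4 and CDH5 were tested and all 4 fell, though ENG, ROBO4 and CDH5 passed the filter through the control libraries alone. The other 4, KDR, VWF, PECAM1 and TEK, were too low to be tested and were higher in the knockout libraries, with KDR at 4, 1 and 0 counts in the control libraries against 5, 8 and 19. Their list summed to 162 to 175 CPM in the control libraries against 4.19 to 4.92 CPM in the knockout libraries, most of it ESAM and ENG. The fibroblast list summed to 3.62 to 4.55 CPM in the control libraries against 12.8 to 14.6 CPM in the knockout libraries, almost all of it COL1A1. The haematopoietic list summed to 37.5 to 41.5 and 58.5 to 63.1 CPM, most of it CD68. CD68 rose from 33.5 to 47.6 CPM, CD14 from 1.69 to 7.10 CPM and CD8A from 0.686 to 1.31 CPM, while ITGAM did not pass. CD3E was at 0 throughout, and PTPRC was at 0 in the control and at 3, 5 and 1 counts in the knockout libraries. The part of other cell types in the results below was not tested. In bulk RNA, fewer cells of a type and less RNA per cell cannot be told apart.

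Of the 44 members, 22 had enough counts to be tested: 9 MMP, 10 ADAMTS and 3 TIMP genes. Between the groups, 12 members were higher in the knockout libraries, 7 were lower and 3 did not pass (edgeR, adjusted p under 0.05). Among all 12929 tested genes, 42% were higher, 43% were lower and 85% were called in either direction, so the members' share of 86.4% called lay near that background. Of the 22 tested members, 19 passed the low-count filter in both groups. ADAMTS1, ADAMTS5 and MMP11 passed it through the control libraries alone and so had to be lower in the knockout libraries. Rises of at least 4-fold were called for 7 members, against 9.21% of all tested genes. Falls of at least 4-fold were called for ADAMTS1, ADAMTS5, MMP11 and MMP14, of which the filter fixed the direction of the first 3, so their number is not read against the 4.87% of all tested genes. The median log2 fold change of the tested members was 0.90, beside -0.00696 over all tested genes. The CPM of the groups did not overlap for 20 of the 22, against 85.6% of all tested genes, and ADAMTS3 and MMP19 were the 2 whose groups overlapped. The 12 and 7 were the same counts under 3 other scalings between libraries, and 13 and 6 on FPKM or with gene lengths as an offset, where TIMP1 changed direction.

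**Figure D1:**
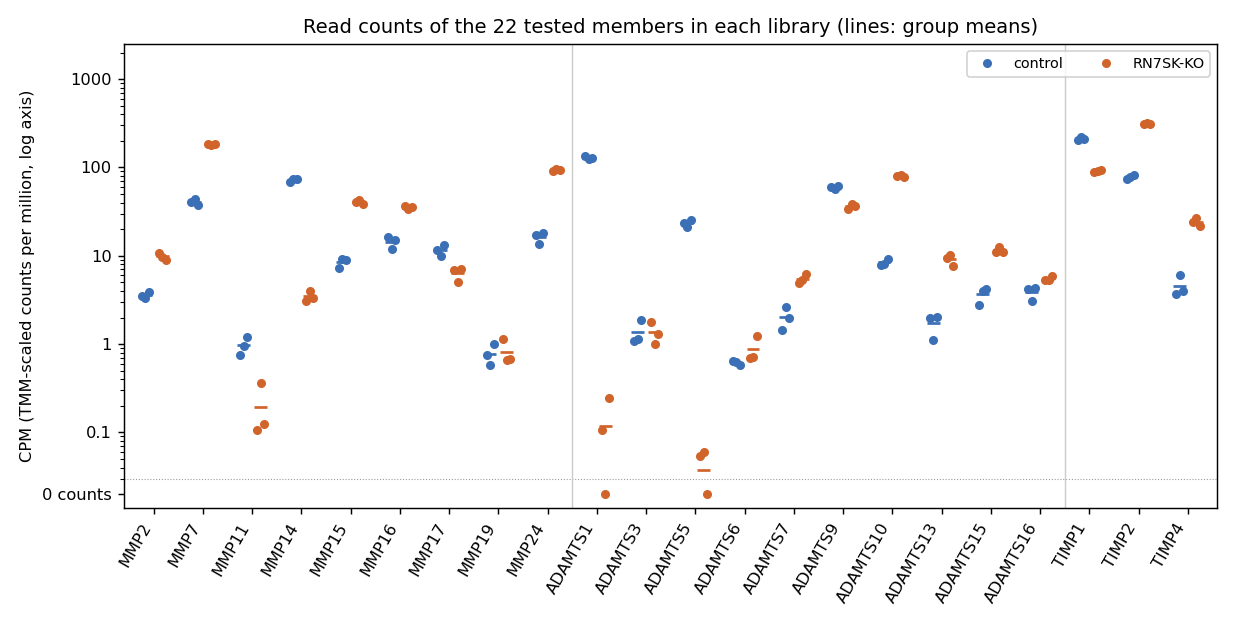
Each point is the CPM of a tested member in 1 library, on a log axis, with the 3 control libraries in blue and the 3 knockout libraries in orange. Short lines mark group means, and libraries with 0 counts stand below the dotted line. ADAMTS1 and ADAMTS5 fall to or near 0 in the knockout libraries, while MMP7, MMP24, ADAMTS10 and TIMP2 lie clearly above their control points.

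MMP7 was the most abundant MMP per length in every library and was higher still in the knockout group. The gene lies at chr11:102520508-102530747 (GRCh38, minus strand), in the cluster of MMP genes on chromosome 11q22. It had 746, 837 and 718 counts in the 3 control libraries, in the order of their replicate numbers, against 3461, 3010 and 2964 in the 3 knockout libraries. The groups did not overlap, and the libraries of each group lay close together. The rise was 4.51-fold, from 40.5 ± 3.15 to 183 ± 3.16 CPM (mean ± SD, n = 3 each), with a log2 fold change of 2.17 ± 0.055 (fit ± SE, adjusted p = 1.32e-27). In FPKM, which scales reads to gene length and library size, it went from 35.1 ± 2.74 to 162 ± 2.94. MMP7 made up 49.6 to 55.3% of the summed FPKM of all MMP genes in the control libraries and 80.3 to 81.3% in the knockout libraries.

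The other MMP genes of the 11q22 cluster were near 0 in both groups, and none had enough counts to be tested. They are the collagenases MMP1, MMP8 and MMP13, the stromelysins MMP3 and MMP10, the elastase MMP12 and the enamel protease MMP20. Collagenase MMP1 had 2, 5 and 3 counts in the control libraries against 11, 5 and 5 in the knockout libraries. MMP13 had 4, 5 and 2 counts and MMP20 had 3, 5 and 2 in the control, and both had 0 in every knockout library. Set over a floor of 3 counts per group, MMP13 was 3.33-fold and MMP20 3.03-fold lower, which leaves out counting error in the control counts. MMP3 and MMP10 had at most 4 counts in any library, and MMP8 and MMP12 each had 1 count in all. With no low-count filter, edgeR called MMP13 and MMP20 lower (adjusted p = 0.00518 and 0.00795), opposite to MMP7, and the other 5 did not pass. The nearest tested genes on either side, TMEM123 and DCUN1D5, fell by 0.59 and 1.02 on the log2 scale.

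Promoter letters of MMP7 and its neighbours are shown because MMP7 alone of the cluster was abundant. RefSeq promoters (GRCh38.p14) were found for 25 of the 44 members. The 250 bases before each start were searched on both strands. AP-1, the factor of the JUN and FOS proteins, was searched as TGANTCA, and the TATA box, where transcription is placed, as TATAAA. The site of the Wnt-responsive TCF and LEF factors was searched as CTTTGNT, and the GC box bound by SP1 and its relatives as GGGCGG. These motifs do not overlap each other in the letters shown. The last 120 bases before the start are printed 5′ to 3′ on the gene's strand, with matches in capitals. MMP7 is chr11:102530748-102530867, MMP10 is chr11:102780629-102780748, MMP20 is chr11:102625333-102625452 and MMP8 is chr11:102724955-102725074, all on the minus strand.
MMP7: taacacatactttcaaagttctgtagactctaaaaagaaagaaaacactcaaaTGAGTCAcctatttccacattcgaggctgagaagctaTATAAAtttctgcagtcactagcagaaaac
MMP10: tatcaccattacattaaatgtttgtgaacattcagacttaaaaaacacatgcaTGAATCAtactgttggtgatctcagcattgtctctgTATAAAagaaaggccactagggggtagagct
MMP20: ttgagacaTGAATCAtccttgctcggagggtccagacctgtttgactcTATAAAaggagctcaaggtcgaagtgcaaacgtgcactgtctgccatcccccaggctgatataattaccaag
MMP8: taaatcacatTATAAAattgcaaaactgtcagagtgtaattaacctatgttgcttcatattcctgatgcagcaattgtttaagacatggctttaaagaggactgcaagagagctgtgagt

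In MMP7 and MMP10 the AP-1 match began 67 bases before the start, and their TATA matches began 30 and 31 bases before it. MMP20 had both motifs farther out, at 112 and 72 bases, and MMP8 had a TATA match at 110 bases and no AP-1 match. AP-1 matches were found in 4 of 25 members, against 4.65% of 13237 promoters of listed genes, and TATA matches in 6 of 25, against 7.19%. TCF and LEF matches were found in 1 of 25, against 10.1%. The GC content of the 250 bases was 33.6% in MMP7 and 34.4% in MMP10, below the median of 63.6% over those promoters. MMP7 and MMP10 thus held both motifs at nearly the same positions, while MMP10 had 0, 4 and 0 counts in the control libraries against 3, 3 and 0 in the knockout libraries. A match is a description of the letters and not of binding.

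Membrane-type MMPs moved in both directions. MMP14, the main activator of pro-MMP2 at the cell surface (chr14:22836585-22847758), had 1257, 1399 and 1408 counts in the control libraries against 57, 67 and 54 in the knockout libraries. All knockout libraries were far below all control libraries. MMP14 fell 20.7-fold, from 71.6 ± 3.20 to 3.46 ± 0.485 CPM, with a log2 fold change of -4.37 ± 0.092 (adjusted p = 7.35e-30). MMP15, a paralog that also spans the membrane (chr16:58025754-58046901), had 136, 177 and 172 counts in the control libraries against 752, 715 and 629 in the knockout libraries. It rose 4.75-fold to 40.6 ± 2.02 CPM (log2 fold change 2.25 ± 0.087, adjusted p = 3.45e-22). MMP24, known from the nervous system (chr20:35226690-35276998), had 315, 259 and 351 control counts and 1692, 1612 and 1507 knockout counts. It rose 5.72-fold, from 16.3 ± 2.47 to 93.3 ± 2.72 CPM (log2 fold change 2.52 ± 0.074, adjusted p = 8.89e-24). Exons of MMP24 overlap those of the opposite-strand gene MMP24OS and of another opposite-strand gene over 961 bases. MMP24OS itself rose from 25.7 ± 1.51 to 47.8 ± 1.80 CPM, and without a stated strand setting reads of the overlap cannot be told apart.

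MMP16, also membrane-spanning, had 301, 228 and 291 counts in the control libraries against 674, 560 and 584 in the knockout libraries, a 2.44-fold rise (log2 fold change 1.28 ± 0.087). MMP17, which is held by a lipid anchor, had 218, 190 and 255 counts in the control libraries against 127, 85 and 115 in the knockout libraries. It fell by 0.88 ± 0.13 on the log2 scale (adjusted p = 3.54e-07), the smallest called change among the MMP genes. MMP25, the other lipid-anchored member, was below the filter with 13, 11 and 10 counts in the control libraries against 4, 3 and 2 in the knockout libraries. Of the 5 tested membrane-type genes, 3 thus rose and 2 fell. Counted per length, the control libraries had more MMP14 (19.4 ± 0.804 FPKM) than any other membrane-type member. In the knockout libraries MMP24 (20.1 ± 0.559 FPKM) and MMP15 (9.92 ± 0.444 FPKM) stood above MMP14 (0.928 ± 0.128 FPKM).

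For these genes the letters before the start are shown for comparison with MMP7, together with ADAMTS10, described below, whose rise was the largest among the 22 tested members. MMP14 is chr14:22836465-22836584 and MMP24 is chr20:35226570-35226689, both on the plus strand, and ADAMTS10 is chr19:8610716-8610835 on the minus strand.
MMP14: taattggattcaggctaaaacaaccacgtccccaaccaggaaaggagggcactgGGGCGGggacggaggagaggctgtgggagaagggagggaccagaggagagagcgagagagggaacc
MMP24: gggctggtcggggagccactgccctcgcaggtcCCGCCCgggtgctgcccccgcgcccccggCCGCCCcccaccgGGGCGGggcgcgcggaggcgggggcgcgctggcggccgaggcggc
ADAMTS10: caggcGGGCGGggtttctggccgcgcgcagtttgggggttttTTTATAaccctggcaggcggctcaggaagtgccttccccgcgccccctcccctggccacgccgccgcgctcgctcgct

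MMP14 had a GC box match 66 bases before its start, and MMP24 had 3, at 87, 58 and 45 bases. The ADAMTS10 stretch had a GC box match at 115 bases and a TATA match on the opposite strand at 78 bases. GC box matches occurred in 19 of 25 members, against 61.3% of promoters of listed genes. The GC content was 56.8% for MMP14, 77.6% for MMP24 and 78.4% for ADAMTS10. MMP14 fell and the other two rose, and GC box matches were found in members of both directions.

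Among the remaining MMP genes, the gelatinase MMP2, which cuts basement membrane collagen, had 65, 64 and 74 counts in the control libraries against 201, 162 and 147 in the knockout libraries. MMP2 rose 2.75-fold, from 3.58 ± 0.265 to 9.84 ± 0.895 CPM (adjusted p = 1.61e-11). Its exons overlap those of a same-strand gene over 174 bases. The other gelatinase, MMP9, was below the filter with 5, 1 and 6 counts in the control libraries against 4, 13 and 3 in the knockout libraries. MMP11, a stromelysin activated inside the cell by furin, had 14, 18 and 23 counts in the control libraries against 2, 6 and 2 in the knockout libraries. It fell by 2.28 ± 0.48 on the log2 scale (adjusted p = 6.56e-05). Leaving out each library in turn gave -3.005 (without knockout replicate 2) to -1.969 (without knockout replicate 1). Exons of MMP11 overlap those of the opposite-strand gene CHCHD10 over 218 bases. CHCHD10 was far more abundant and rose, with group means of 51.2 (control) and 74.3 CPM (knockout). The means of MMP11 were 0.967 (control) and 0.196 CPM (knockout). Without a stated strand setting, reads of this overlap cannot be told apart, and their share of the MMP11 counts was not tested. MMP19 had 0.775 ± 0.209 and 0.821 ± 0.267 CPM and did not pass (adjusted p = 0.8). MMP28 had at most 6 counts, MMP21 at most 3 and MMP23B at most 2 in any library.

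**Figure D2:**
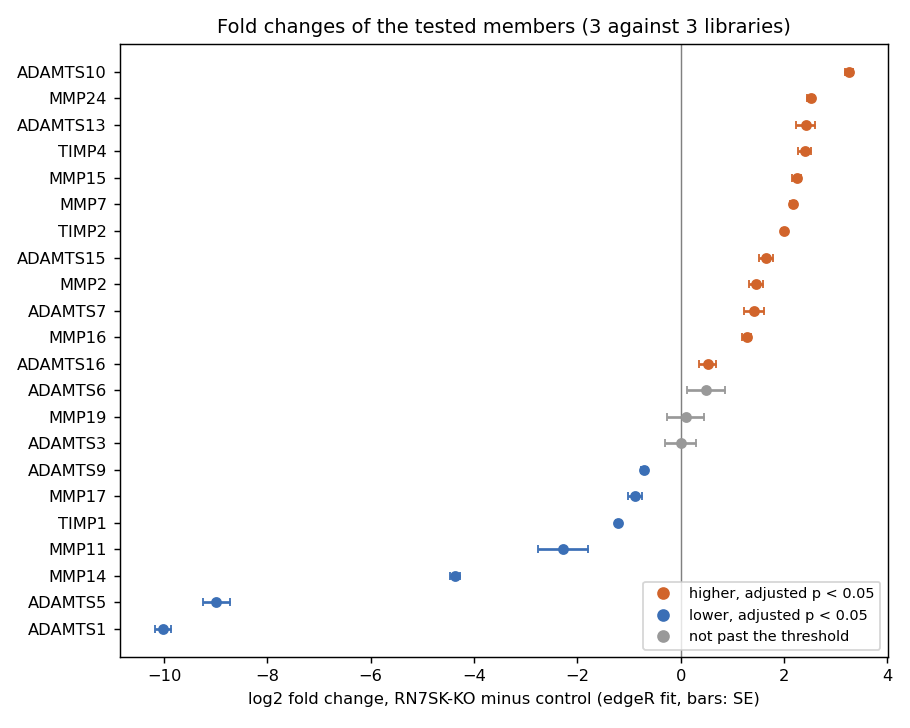
Points are edgeR log2 fold changes of the 22 tested members, knockout minus control, with bars of 1 SE. ADAMTS10 is the highest at 3.26, while ADAMTS1, ADAMTS5 and MMP14 lie at -10.03, -8.99 and -4.37, and the 3 grey members did not pass.

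ADAMTS1 and ADAMTS5, proteases of versican and aggrecan that lie side by side on chromosome 21, were nearly absent from the knockout libraries. ADAMTS1 (chr21:26835755-26845409) had 2524, 2370 and 2418 counts in the control libraries against 2, 0 and 4 in the knockout libraries. Control counts summed to 1108 times the knockout counts (95% exact counting interval 508.8 to 3020), and the interval covers counting error only. Its level went from 129 ± 6.50 to 0.118 ± 0.123 CPM, with a log2 fold change of -10.03 ± 0.15 (adjusted p = 6.78e-33). Leaving out each library in turn gave -10.99 to -9.493. ADAMTS5 (chr21:26917922-26967088) had 430, 409 and 482 counts in the control libraries against 1, 1 and 0 in the knockout libraries. The ratio was 600.5 (counting interval 165.9 to 4964), and the fitted log2 fold change was -8.99 ± 0.26 (adjusted p = 1.24e-25). Both folds rest on few knockout counts. Of the endothelial markers given above, ESAM, ENG, ROBO4 and CDH5 were lower in the same libraries. KDR, VWF, PECAM1 and TEK were higher but too low to be tested. The part of these markers' cells in the fall of ADAMTS1 and ADAMTS5 was not tested.

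The tested gene before them, CYYR1, had 348, 330 and 348 counts in the control libraries against 0 in every knockout library. CYYR1, ADAMTS1 and ADAMTS5 are consecutive among the tested genes of chromosome 21 that were matched by symbol. The genes on both flanks were still read in the knockout libraries. APP, the amyloid precursor gene before CYYR1, fell by 1.15 ± 0.038 on the log2 scale, from 1823 ± 35.5 to 821 ± 21.6 CPM. LTN1, a ubiquitin ligase gene whose start is 2010222 bases beyond that of ADAMTS5, fell by 1.04 ± 0.062. The junction gene JAM2, farther before, went from 21, 28 and 32 counts to 2, 1 and 3 and fell 11.6-fold, while ATP5PF and GABPA between JAM2 and APP fell by 0.59 and 0.35. CYYR1 and these flanking genes were looked at after the values of ADAMTS1 and ADAMTS5 were seen. CYYR1 and JAM2 passed the filter through the control libraries alone and so had to be lower in the knockout libraries.

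**Figure D3:**
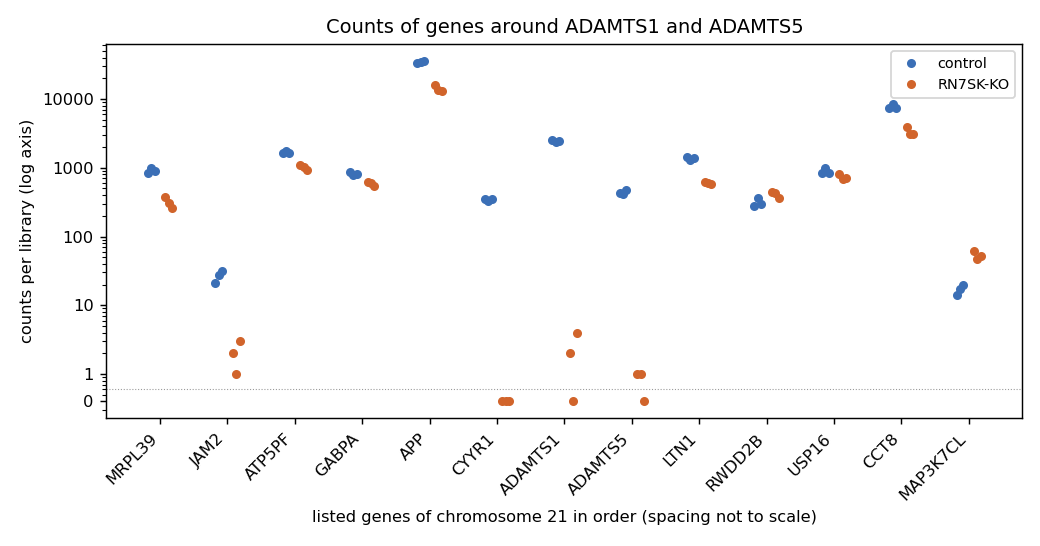
Points are counts per library on a log axis for 13 listed genes of chromosome 21 in their order along it, with control in blue and knockout in orange and 0 counts below the dotted line. CYYR1, ADAMTS1 and ADAMTS5 have 330 counts or more in every control library and at most 4 in any knockout library.

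Other ADAMTS genes that cut proteoglycans changed less. ADAMTS9, a versican protease (chr3:64515654-64688000), had 1113, 1081 and 1186 counts in the control libraries against 634, 643 and 599 in the knockout libraries. ADAMTS9 fell by 0.71 ± 0.063 on the log2 scale (adjusted p = 2.1e-12), from 59.5 ± 2.74 to 36.4 ± 2.19 CPM. ADAMTS15 had 51, 77 and 80 control counts and 207, 210 and 178 knockout counts and rose 3.15-fold (adjusted p = 1.26e-12). Its neighbour on chromosome 11, ADAMTS8, was below the filter with 0, 1 and 1 counts in the control libraries against 6, 8 and 6 in the knockout libraries, a ratio of 11 (counting interval 2.67 to 97.1). ADAMTS4, another aggrecanase, had 1, 0 and 0 counts in the control libraries against 0, 3 and 2 in the knockout libraries, and ADAMTS20 had 1 count in all.

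ADAMTS10 had the largest rise among the 22 tested members, while ADAMTS8, below the filter, had a higher ratio of summed counts on far fewer counts. With no low-count filter, the fitted log2 fold change of ADAMTS8 was 3.21, beside 3.239 for ADAMTS10. In that fit ADAMTS12 (5.753), TIMP3 (5.42), ADAMTS17 (5.41) and MMP21 (4.145), all with 0 control counts, were called with larger rises. ADAMTS10 encodes a secreted protease that binds fibrillin and is mutated in Weill-Marchesani syndrome (chr19:8580240-8610715). The counts were 146, 156 and 176 in the control libraries against 1497, 1389 and 1275 in the knockout libraries. The rise was 9.57-fold, from 8.41 ± 0.692 to 80.6 ± 2.29 CPM (log2 fold change 3.26 ± 0.074, adjusted p = 6.89e-29). ADAMTS10 made up 63.3 to 64.8% of the summed ADAMTS FPKM in the knockout libraries, a place that ADAMTS1 held with 63.6 to 67.1% in the control libraries. Summed over all 19 ADAMTS genes, FPKM went from 41.2 ± 1.70 to 29.5 ± 0.805, so the sum changed less than either leading gene. The related ADAMTS6 had 12, 12 and 11 counts in the control libraries against 13, 12 and 20 in the knockout libraries and did not pass (adjusted p = 0.207). ADAMTS17 had 0 counts in the control libraries against 10, 2 and 3 in the knockout libraries. Its ratio over the floor of 3 counts per group was 5.5, which leaves out counting error. ADAMTS19 had 2 counts in all.

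ADAMTS13, the protease that trims von Willebrand factor and is best known from liver, had 37, 21 and 39 counts in the control libraries against 176, 172 and 126 in the knockout libraries. It rose 5.35-fold, from 1.71 ± 0.531 to 9.16 ± 1.29 CPM (adjusted p = 8.88e-14). VWF, its substrate, was at 0 in the control libraries and at 0.16 CPM on average in the knockout libraries. ADAMTS7, which cuts the cartilage protein COMP, had 27, 50 and 38 control counts and 91, 90 and 100 knockout counts and rose 2.69-fold (adjusted p = 4.47e-08). ADAMTS12, the closest relative of ADAMTS7, had 0 counts in the control libraries against 6, 3 and 10 in the knockout libraries. Its ratio over the same floor was 6.97, which leaves out counting error. ADAMTS16 had 77, 58 and 83 counts in the control libraries against 98, 90 and 97 in the knockout libraries, a 1.44-fold rise (adjusted p = 0.0039). It was the smallest called change among all members. The procollagen N-proteinases were low: ADAMTS3 had 20, 22 and 36 control and 33, 17 and 21 knockout counts and did not pass (adjusted p = 0.997). ADAMTS2 had 0 counts in the control libraries against 3, 1 and 1 in the knockout libraries. ADAMTS14 had 14 counts in the control libraries against 13 in the knockout libraries, and ADAMTS18 had 3 and 2.

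Of the inhibitors, TIMP2 and TIMP4 rose, and the direction of TIMP1 depended on the scale. TIMP2, which inhibits MMPs and also helps MMP14 to activate pro-MMP2 (chr17:78852977-78925387), had 1381, 1505 and 1557 counts in the control libraries against 5789, 5370 and 5020 in the knockout libraries. It rose 4.01-fold, from 78.2 ± 3.43 to 314 ± 6.38 CPM (log2 fold change 2.0 ± 0.047, adjusted p = 1.66e-28). In the same libraries MMP2 rose and MMP14 fell, as given above. TIMP4 (chr3:12153068-12158912) had 68, 117 and 76 counts in the control libraries against 452, 449 and 352 in the knockout libraries and rose 5.27-fold (log2 fold change 2.40 ± 0.13, adjusted p = 7.78e-15). Exons of TIMP2 and TIMP4 overlap those of opposite-strand genes over 367 and 170 bases. Those of TIMP2 also overlap the same-strand gene CEP295NL over 198 bases, and reads of these overlaps cannot be told apart. TIMP3, which is held in the matrix, had 0 counts in the control libraries against 3, 6 and 6 in the knockout libraries. Its ratio over the floor was 5.5, which leaves out counting error.

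TIMP1, which lies inside the gene SYN1 (chrX:47582436-47586789), had the highest deposited FPKM of the inhibitors in every library. It had 3806, 4174 and 4066 counts in the control libraries against 1650, 1526 and 1539 in the knockout libraries, a 2.32-fold lower level (log2 fold change -1.21 ± 0.047, adjusted p = 3.66e-22) that turned to a higher one on FPKM. In FPKM it had 96.3, 102 and 99.0 in the control libraries against 110, 113 and 119 in the knockout libraries, with no overlap. Its log2 fold change was 0.20 when limma was run on log2(FPKM + 0.1), with an adjusted p of 0.000701. It was 0.17 when edgeR took the gene lengths as an offset, with an adjusted p of 0.00106. The length behind the FPKM, recovered from count over FPKM, was 2085 bases for the control and 797 bases for the knockout tables. GENCODE transcripts of TIMP1 span 341 to 1095 bases, and all their exons together 1541 bases, which is less than the length used for the control. For TIMP4 the lengths were 1633 and 1194 bases, and its rise was 5.27-fold in counts and 7.37-fold in mean FPKM. For TIMP2 they were 3655 and 3652 bases.

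**Figure D4:**
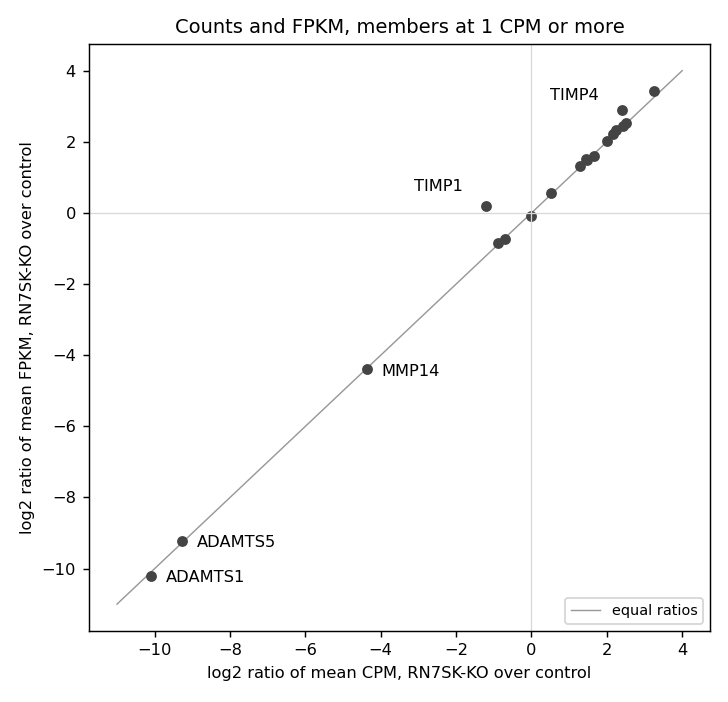
Each point is a tested member with at least 1 CPM on average in either group, placed by the log2 ratio of group means in CPM (x axis) and FPKM (y axis). Most points lie near the line of equal ratios, and TIMP1 is the member that lies below 0 on the count axis and above 0 on the FPKM axis beyond its spread.

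Compared per length, the control libraries held most TIMP1 (99.1 ± 2.78 FPKM), then MMP7 (35.1 ± 2.74), ADAMTS1 (27.0 ± 1.45), TIMP2 (20.8 ± 0.847), MMP14 (19.4 ± 0.804) and ADAMTS9 (7.93 ± 0.365). MMP17 (3.66 ± 0.527 FPKM) and MMP24 (3.49 ± 0.528 FPKM) came next and did not differ beyond their spread. The knockout libraries held most MMP7 (162 ± 2.94 FPKM), then TIMP1 (114 ± 4.29) and TIMP2 (85.2 ± 1.40). At the length used for the control, an alternative chosen after seeing the data, TIMP1 would have 43.6 ± 1.64 FPKM in the knockout libraries and stand below TIMP2. TIMP4 (20.2 ± 2.05 FPKM), MMP24 (20.1 ± 0.559) and ADAMTS10 (18.9 ± 0.441) followed, and TIMP4 overlapped the other 2 in its spread. In all, 12 members reached 1 FPKM in the control libraries against 14 in the knockout group. ADAMTS1 went from rank 3 to rank 33 of 44, MMP14 from 5 to 16, ADAMTS10 from 12 to 6 and TIMP4 from 9 to 4. Ranks rest on the gene lengths too, and a shorter length raises FPKM. For TIMP4 the length was 1633 bases in the control and 1194 bases in the knockout group, and for ADAMTS10 4721 and 4242. Ranks of both genes at the control length were not computed. Summed FPKM went from 66.4 ± 1.82 to 200.2 ± 2.40 for the MMP genes and from 123 ± 4.03 to 219 ± 4.06 for the TIMPs. These sums rest on lengths that differ between the groups. With TIMP1 alone at the control length, and TIMP4 left at its shorter one, the knockout sum of the TIMPs would be 149 ± 2.97 FPKM.

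Genes that work around these proteases were counted in 6 lists. Of 5 tested ADAMTS-like genes, which lack the protease domain, 1 rose, 3 fell and THSD4 did not pass (median log2 fold change -1.87). PAPLN, a papilin protein of the matrix, fell by 7.08 on the log2 scale, ADAMTSL5 fell by 2.52 and ADAMTSL4 fell by 1.87. The gene that rose, ADAMTSL3, was named after its values were seen and had 0, 0 and 1 counts in the control libraries against 22, 17 and 14. PAPLN passed the filter through the control libraries alone and ADAMTSL3 through the knockout libraries alone. Of 9 other protease inhibitors and matrix regulators, 2 rose, 3 fell and 4 did not pass (median -0.16). The Kunitz inhibitor TFPI2 fell by 1.75, while cystatin C, encoded by CST3, rose by 1.31 and the testican SPOCK3 by 2.48. SPOCK3 passed the filter through the knockout libraries alone and so had to be higher there. RECK, a membrane-anchored MMP inhibitor, had 9.81 CPM in the control libraries against 8.27 CPM in the knockout group (adjusted p = 0.0521).

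Of 8 genes that activate MMPs or their activators, 4 rose and 4 fell (median -0.10). Urokinase, PLAU, fell by 1.29 ± 0.039 on the log2 scale, whereas tissue plasminogen activator, PLAT, rose by 3.71 ± 0.16 and the proprotein convertase PCSK6 by 2.06 ± 0.10. ADAM proteases, which shed cell surface proteins, rose in 8 of 10 cases, fell in 1 and did not pass in 1 (median 0.48). ADAM23, which lacks protease activity, rose by 2.27, the TNF-releasing ADAM17 by 1.34 and ADAM9 by 0.48. Of 8 tested substrates, 3 rose and 5 fell (median -0.73). Tenascin C, TNC, fell by 1.03, and the fibrillin gene FBN2 rose by 2.17. VCAN, which encodes the versican cut by ADAMTS1, ADAMTS5 and ADAMTS9 and was picked after its values were seen, fell by 1.18 ± 0.068, from 703 to 310 CPM. Of 5 surface partners, 2 rose and 3 fell (median -0.11), with TSPAN14 up by 1.15, CD151 up by 0.22 and CD44 at -0.49. Of the genes counted here, the convertase PCSK5, ADAM28 and the substrate ELN passed the filter through the knockout libraries alone. The substrate BGN passed it through the control libraries alone, so the filter fixed the direction of each. The counts of these lists stand beside the 85% of all tested genes that were called, 42% higher and 43% lower.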

How the data were processed

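RNA-seq was done on 6 libraries, and samples were grouped by their titles into 3 control and 3 RN7SK-KO. HISAT2 2.2.1.0, the build GRCh38, Trimmomatic 0.36 and FastQC 0.11.5 appear in the submitters' processing notes, which state no roles. The sources used here give no counter, annotation or strand setting. The authors deposited raw read counts per gene symbol and FPKM (reads scaled to gene length and library size). Gene lengths were recovered from count over FPKM with the total that made them whole numbers within 0.02 bases; they agreed within 1% between groups for 32.3% of genes. Exons of 9 of the 22 tested members overlap exons of another gene.

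Counts were tested in R 4.3.3 with edgeR 4.0.16: filterByExpr by group (about 0.539 CPM in 3 libraries), trimmed mean of M values (factors 0.989 to 1.02), glmQLFit (robust) and glmQLFTest, two-sided, Benjamini-Hochberg adjusted over 12929 genes, threshold 0.05. The SE is the log2 fold change over the root of its F. The test was checked on simulated counts with 200 changed genes and the same spread setting for all genes. In the data 85% of tested genes were called, so the check does not cover this setting. CPM use the same factors. Depth is given as the total count of each library. Counting intervals are exact, at 95%. Members and lists were chosen with earlier results of these data known. Counts per library are given for tested members with at least 1 CPM on average in either group, and statistics for the up to 20 of them with the highest CPM and for changes of at least 4-fold; other lists name up to 3 genes by smallest p. For 1 substrate that this rule selects, the value is not reported here. Positions are from RefSeq (GRCh38.p14) and exons from GENCODE. Alternatives used limma 3.58.1 and DESeq2 1.42.0; figures used Python 3.11.15.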

Additional observations from a re-analysis of the deposited data

How the results depend on the processing

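With other scalings (DESeq2 size factors, upper quartile, total counts), DESeq2, limma-voom and an adjusted p of 0.01, the count of members called stayed at 12 higher and 7 lower. Leaving out each library in turn gave 12 higher and 7 to 8 lower. The replicate block gave 12 and 7 as well. Deviations of same-numbered libraries had correlations of 0.018, -0.0248 and -0.00775, within the range of -0.0344 to 0.0424 of the other pairs. Libraries that share no strong batch would give such values too, so whether the numbers pair them stays undecided. With no low-count filter, 18 were higher and 10 lower of 44 tested; the added calls rest on at most 13 counts in any library. With at least 1 CPM in at least 3 libraries, 12 were higher and 6 lower of 19 tested, and MMP11 was not tested. Against a fold change of 2, 11 and 5 passed, and ADAMTS9, ADAMTS16 and MMP17 did not. Among genes with lengths within 1% between groups, an alternative chosen after seeing the data, 7 were higher and 2 lower of 10 members left, as fewer genes were tested. TIMP1 turned from lower to higher on log2(FPKM + 0.1) at 0.20, on log2(FPKM + 1) at 0.1993 and with lengths as an offset at 0.1733, where the lengths of 2085 and 797 bases enter. The added 1 shrinks low members: on log2(FPKM + 1) ADAMTS1 had -4.77 and ADAMTS5 -1.70. The counts of members at 1 FPKM or above, 12 and 14, were the same from scaled counts over recovered length. Members with under 10 counts in a library cannot show small differences at this depth.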
